A study of Mus musculus with 6 samples.

Results

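Later-stage B cell surface genes are the set of 9 mouse genes Ms4a1, Cd22, Cd72, Cd2, Fcer2a, Cd83, Cd40, Cr2 and Cd24a. They were selected by gene name in the deposited tables of all 6 libraries, each of which lists 54752 gene identifiers, and each name stood on 1 identifier. Their messenger RNA was compared in pro-B cells from the bone marrow of adult C57BL/6 mice. The control group was 3 mice with floxed Skiv2l alleles (Skiv2lfl/fl) and no Cre named in the labels. The Skiv2l-deleted group was 3 mice with the same floxed alleles plus Cd79a-Cre, a driver active from early B lineage stages. Skiv2l encodes the RNA helicase of the SKI complex, which threads messenger RNA into the cytosolic exosome for decay. Each mouse gave 1 library, and Cre goes with the deletion in every comparison, so their effects cannot be told apart. In bulk RNA, fewer cells of a stage and less RNA per cell cannot be told apart either.

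B lineage cells change their surface as they mature. Pro-B cells rearrange the immunoglobulin heavy chain, pre-B cells signal through the pre-B cell receptor and rearrange light chains, and immature and mature B cells carry a complete B cell receptor together with co-receptors that raise or restrain its signal. Cd22 and Cd72 encode inhibitory co-receptors, and Cr2 (CD21, a complement receptor) acts as an activating one. Fcer2a (CD23, the low-affinity IgE receptor), Ms4a1 (CD20), Cd40 (a TNF-receptor family member that receives T cell help) and Cd83 (a partner of MHC class II at the surface) belong mainly to later stages. Cd24a encodes the heat-stable antigen, a small glycan-rich protein on a lipid anchor that is already high on B cell precursors, and Cd2 encodes an adhesion receptor that mouse B lineage cells gain around the pre-B stage.

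Most of the 9 genes were lower in Skiv2l-deleted pro-B cells, and 0 were called higher. Levels are FPKM, fragments per kilobase of transcript scaled to library depth, as the authors deposited them. Differences are Skiv2l-deleted minus control on log2(FPKM + 1), which understates the change of low genes, and were tested with limma over the 13539 genes that reached 1 FPKM in 3 or more libraries. A gene was called at a Benjamini-Hochberg adjusted p under 0.05. Of the 9 members, 7 could be tested, and 6 of these 7 fell: Cd2, Cd72, Fcer2a, Ms4a1, Cd24a and Cd22. Over all genes tested, 8.84% were called, 3.87% lower and 4.97% higher. Fcer2a entered the test through the controls alone, and of 60 genes that did so 48.3% were called lower. Among genes at 1 FPKM or more in all 6 libraries, 5 of 6 tested members were called lower, against 3.9% of all genes. All Skiv2l-deleted libraries lay below all controls in 7 of the 9 members, a separation seen in 7.74% of genes above 0 in any library. Among genes tested, that separation was seen in 12.3%, and in 6 of the 7 tested members. The opposite separation, in 19.9% of genes tested, occurred in 0 members. The median difference of the 7 tested members was −1.20, against 0.06 over all genes tested. Cd40 was not called, and Cd83 and Cr2 lay below the level needed for the test. The 6 calls depended on which libraries were used: with 1 library left out, between 1 and 4 of the 7 members were called lower, namely 1 without control 1, Skiv2l-deleted 1 or Skiv2l-deleted 3, 2 without control 2, and 4 without control 3 or Skiv2l-deleted 2. In the same order, 1.4%, 0.849%, 0.872%, 1.94%, 5.59% and 2.3% of all genes were called lower.

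**Figure D1:**
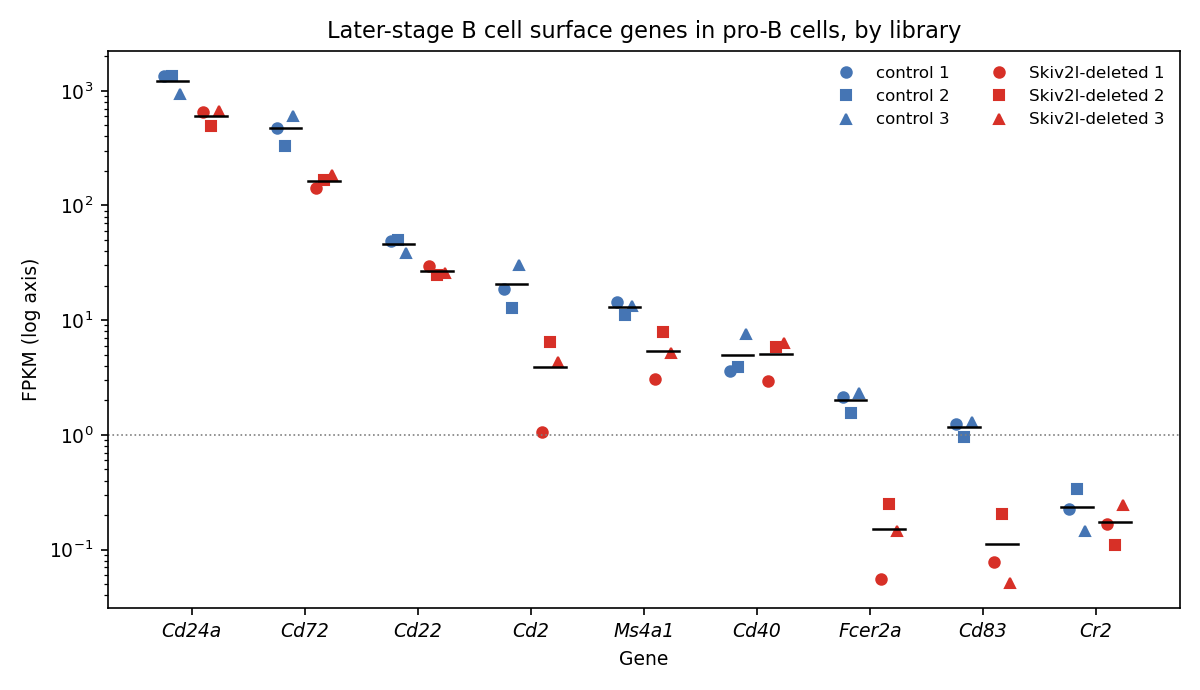
FPKM (vertical log axis) of the 9 genes in each of the 6 libraries, with controls in blue, Skiv2l-deleted libraries in red, a symbol per mouse number and a black bar at each group mean. The dotted line marks 1 FPKM. The groups are apart in 7 genes and overlap in Cd40 and Cr2.

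The libraries held roughly 1.74 to 2.40 Gb of aligned bases, inferred from the most frequent ratio of FPKM to coverage in each library. That ratio varied between genes, so the sizes are estimates. Skiv2l stood at 25.4, 20.2 and 46.3 FPKM in controls and 9.53, 16.1 and 10.9 FPKM in Skiv2l-deleted libraries, apart but not called (log2 difference −1.21, limma adjusted p = 0.063). A value for the whole gene does not show which exons were removed. Cd79a, the gene of the driver, fell from 640 to 739 FPKM to 367 to 441 FPKM (−0.84, limma adjusted p = 0.0123). All 13 pro-B markers listed for this work were tested. Pax5, the gene of a factor that defines the B lineage, was present at 113 to 197 FPKM over the 6 libraries. Markers of neutrophils and monocytes differed between libraries, with the highest sums in control 3 (1320 FPKM) and Skiv2l-deleted 2 (2314 FPKM). Mpo, the myeloperoxidase gene, was at 343 and 641 FPKM there and at 4.30 to 8.99 FPKM in the other 4 libraries. Control 2 (505 FPKM) and Skiv2l-deleted 1 (409 FPKM) also held such signal, and control 1 (124 FPKM) and Skiv2l-deleted 3 (76.6 FPKM) had the least. The neutrophil granule gene Ngp was highest in control 2 (58.3 FPKM) and Skiv2l-deleted 1 (49.6 FPKM), as was Ltf, and S100a9 was at 165 to 243 FPKM in 4 libraries against 1.499 and 1.98 FPKM in control 1 and Skiv2l-deleted 3. Of the 9 such markers tested, 0 were called. Dendritic cell markers, 1 of 9 tested and 0 called, summed to 22.9 to 53.4 FPKM in controls and 57.6 to 92.8 FPKM in Skiv2l-deleted libraries. Most of that sum came from Bst2, the marker tested, at 20.6 to 51.4 and 56.9 to 80.8 FPKM. Without control 3 and Skiv2l-deleted 2, the same 6 members were called lower (0 higher) among 5.82% of all genes called lower, though control 2 and Skiv2l-deleted 1 with their neutrophil signal remained in that fit.

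Promoter sequence from RefSeq (GRCm38.p6, minus strand) was available here for 4 of the 9 members, and the 120 bases upstream of the start are shown for the 3 of them that fell. They are Cd72 (chr4:43454627-43454746), Cd22 (chr7:30879029-30879148) and Fcer2a (chr8:3694175-3694294, the outermost of 3 listed starts). The RefSeq start used for Cd22 lies inside the gene's span in the deposited tables (30865402 to 30880342). Its window is thus upstream of that start but within the annotated gene. Capitals mark matches to motifs searched on both strands in the 250 bases upstream.
Cd72: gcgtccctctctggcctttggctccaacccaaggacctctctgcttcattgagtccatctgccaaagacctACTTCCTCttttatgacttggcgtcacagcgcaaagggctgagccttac
Cd22: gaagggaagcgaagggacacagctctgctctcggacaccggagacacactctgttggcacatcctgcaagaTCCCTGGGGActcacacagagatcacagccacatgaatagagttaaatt
Fcer2a: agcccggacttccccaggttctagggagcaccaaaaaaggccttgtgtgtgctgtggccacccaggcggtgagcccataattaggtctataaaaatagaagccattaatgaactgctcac
The Cd72 window holds GAGGAAGT, a core bound by the ETS factors PU.1 and SPI-B, on the reverse strand from 49 bases upstream of the start. That motif lay in 2.44% of 32851 such windows. The Cd22 window holds TCCC and GGGA with any 2 bases between them, the palindrome bound by EBF1, also from 49 bases upstream, and 0.779% of windows held it. None of the 3 windows held the octamer ATGCAAAT (1.6% of windows), GGAA and GAAA with any 2 bases between them, the composite of an ETS and an IRF site (2.3%), or CCACACCC, a box bound by KLF factors (3.20%). A match describes these letters alone and is not evidence of binding.

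The inhibitory co-receptor gene Cd72 (chromosome 4, 43446462 to 43454628) is the second most abundant of the set. It stood at 476, 331 and 608 FPKM in controls 1 to 3 and at 141, 167 and 186 FPKM in Skiv2l-deleted 1 to 3. Every Skiv2l-deleted library lay below every control, and the lowest control was 1.78 times the highest Skiv2l-deleted value. Controls averaged 472 ± 139 FPKM and Skiv2l-deleted mice 165 ± 22.5 FPKM (SD, n = 3), a log2 difference of −1.48 ± 0.23 (SE, limma adjusted p = 0.014). Leaving out control 1, Skiv2l-deleted 1 or Skiv2l-deleted 3 ended the call (limma adjusted p = 0.0595, 0.0674 and 0.0516). Cd72 shares its 3′ end with Tesk1 on the opposite strand, and Tesk1 was listed at 4.87 to 8.42 FPKM, far below Cd72 in each library.

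Cd22 (chromosome 7, 30865402 to 30880342) encodes a sialic acid-binding lectin that, like CD72, recruits the phosphatase SHP-1 to damp B cell receptor signals. Its levels were 49.0, 50.03 and 38.5 FPKM in controls and 29.4, 24.6 and 26.0 FPKM in Skiv2l-deleted libraries. The groups did not overlap, and the spread within the Skiv2l-deleted group was narrow. Group averages of 45.8 ± 6.38 and 26.7 ± 2.45 FPKM (SD, n = 3) gave a log2 difference of −0.75 ± 0.14 (SE, limma adjusted p = 0.0223). This was the smallest difference among the 6 called members, with a 95% interval of −1.08 to −0.43. Only the omission of control 3 kept the call (limma adjusted p = 0.00939). Without any other single library the limma adjusted p was 0.0638 (Skiv2l-deleted 2) to 0.102 (Skiv2l-deleted 3).

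Cd24a (chromosome 10, 43578284 to 43584265) was the most abundant member in every library. Its values were 1337, 1344 and 944 FPKM in controls and 653, 496 and 665 FPKM in Skiv2l-deleted libraries. Control 3, the lowest control, was still 1.42 times the highest Skiv2l-deleted library. The means of 1208 ± 229 and 605 ± 94.3 FPKM (SD, n = 3) gave a log2 difference of −0.99 ± 0.19 (SE, limma adjusted p = 0.0249). As for Cd22, the call held in 1 of 6 single omissions, that of control 3 (limma adjusted p = 0.0117), with 0.062 (without Skiv2l-deleted 2) to 0.09 (without control 1) in the others. Red cell precursors also carry CD24. Listed erythroid markers summed to 5.33 to 8.15 FPKM in controls and 3.82 to 204 FPKM in Skiv2l-deleted libraries, the top value in Skiv2l-deleted 2, which had the lowest Cd24a.

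Cd2 (chromosome 3, 101275899 to 101287939) had the largest difference of the tested members on the log2(FPKM + 1) scale. With a pseudocount of 0.1 that of Fcer2a was larger (−3.13 against −2.60), and FPKM means were 13.4-fold apart for Fcer2a. It stood at 18.8, 12.9 and 30.3 FPKM in controls and at 1.06, 6.39 and 4.36 FPKM in Skiv2l-deleted libraries. The groups were apart, but both were wide: the highest value was 2.36 times the lowest among controls and 6.06 times among Skiv2l-deleted libraries. Averages of 20.7 ± 8.87 and 3.94 ± 2.69 FPKM (SD, n = 3) were 5.25-fold apart, with a log2 difference of −2.24 ± 0.50 (SE, limma adjusted p = 0.0394) and a 95% interval of −3.43 to −1.06. The call held without Skiv2l-deleted 2 (limma adjusted p = 0.0388) and was lost without any other single library, with 0.0664 (without control 3) to 0.115 (without control 1). T and NK cells also carry CD2. Of 13 listed T cell markers 2 were tested and 0 called, and their sum was 16.5 to 19.5 FPKM in controls and 29.6 to 51.3 FPKM in Skiv2l-deleted libraries, most of it from the adaptor gene Lat. The defining T cell gene Cd3e was listed at 0 in all libraries but Skiv2l-deleted 2 (0.106 FPKM), and Ncr1, which defines NK cells, was at most 0.169 FPKM. Of 9 NK cell markers 3 were tested and 1, Klrb1c, rose (log2 difference 1.65, limma adjusted p = 0.00608), and the list summed to 6.70 to 20.2 FPKM in controls against 15.03 to 47.4 FPKM. The part of such cells in the Cd2 values was not tested.

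Ms4a1 (chromosome 19, 11249675 to 11266241), which encodes the membrane protein CD20, stood at 14.4, 11.2 and 13.3 FPKM in controls. The Skiv2l-deleted libraries had 3.05, 7.91 and 5.13 FPKM, all below the controls but spread over a 2.60-fold range. The average fell from 13.0 ± 1.62 to 5.36 ± 2.44 FPKM (SD, n = 3), a log2 difference of −1.20 ± 0.28 (SE). Its limma adjusted p of 0.0448 was the closest to the threshold. The call was kept without Skiv2l-deleted 2 (limma adjusted p = 0.0252) and lost in the other 5 omissions, with 0.0686 (without control 3) to 0.141 (without Skiv2l-deleted 3). With a pseudocount of 0.1 in place of 1 the limma adjusted p was 0.0508 for Ms4a1 and 0.0536 for Cd2, which left 4 members called (3.75% of all genes were called lower).

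Fcer2a (chromosome 8, 3681737 to 3694175) was low in controls, at 2.16, 1.56 and 2.31 FPKM, and lower still in Skiv2l-deleted libraries, at 0.0554, 0.250 and 0.145 FPKM. Group means were 2.01 ± 0.395 and 0.150 ± 0.0975 FPKM (SD, n = 3). The lowest control was 6.23 times the highest Skiv2l-deleted value, the widest gap among the 9 genes. The log2 difference was −1.38 ± 0.17 (SE, limma adjusted p = 0.00807), and the call held in all 6 single omissions (highest limma adjusted p = 0.0441, without Skiv2l-deleted 3). Its size depends on the pseudocount, at −3.13 with 0.1 and −0.44 with 5. Fcer2a entered the test through the controls alone, since every Skiv2l-deleted library was under 1 FPKM. Of 60 genes that entered in that way, 48.3% were called lower, a share against which its own call has to be read. Mean coverage per base was 1.69 to 2.69 in controls, and it was 0.0690 to 0.292 in the Skiv2l-deleted group, where reads were few.

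Cd83 (chromosome 13, 43784775 to 43803132) showed the same kind of gap at a lower level. Controls had 1.24, 0.954 and 1.29 FPKM and Skiv2l-deleted libraries 0.0773, 0.205 and 0.0517 FPKM. The groups did not overlap, which held in this direction for 7.74% of the genes above 0 in any library, and an exact two-sided permutation test gave p = 0.1, its lower limit with 3 mice per group. Because only 2 libraries reached 1 FPKM, Cd83 was outside the main test. With no minimum level, among 28354 genes, its log2 difference was −0.96 (limma adjusted p = 0.0314). In that larger test 2 members were called lower, Cd83 and Fcer2a (0.0315), and 0.818% of all genes were.

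Cr2 (chromosome 1, 195136811 to 195176716), a defining gene of mature B cells, was near 0 throughout. It was listed at 0.226, 0.341 and 0.145 FPKM in controls and 0.168, 0.109 and 0.247 FPKM in Skiv2l-deleted libraries. The groups overlapped (exact two-sided permutation p = 0.5), and mean coverage was 0.167 to 0.422. With no minimum level its log2 difference was −0.07 ± 0.07 (SE, limma adjusted p = 0.674).

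Cd40 (chromosome 2, 165055627 to 165072948) did not follow the other members. It stood at 3.59, 3.89 and 7.55 FPKM in controls and at 2.95, 5.80 and 6.35 FPKM in Skiv2l-deleted libraries. The groups overlapped fully, with means of 5.01 ± 2.21 and 5.03 ± 1.83 FPKM (SD, n = 3). The log2 difference was 0.01 ± 0.32 (SE, limma adjusted p = 0.987), and its 95% interval of −0.75 to 0.78 reaches about the size of the fall of Cd22. The direction of Cd40 turned with the scaling, at −0.0415 with equal medians and −0.0709 after quantile normalization.

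**Figure D2:**
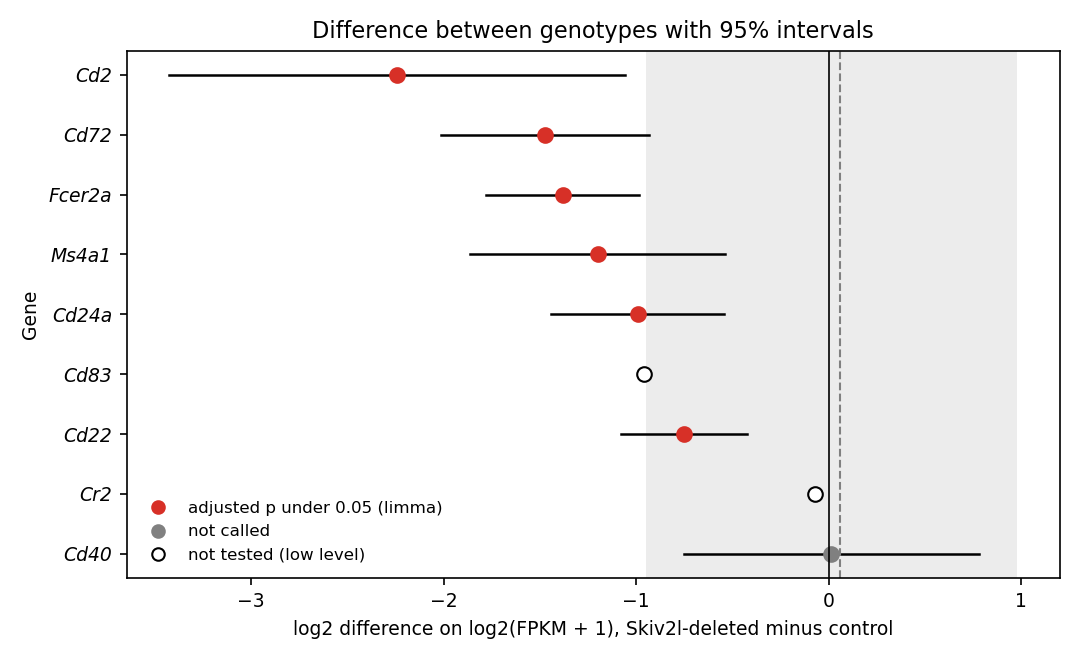
Log2 difference, Skiv2l-deleted minus control, of each gene (points) with its 95% interval from limma (bars). Red points were called, the grey point was not, and open points were not tested. The dashed line is the median of all 13539 genes tested (0.06) and the shaded band holds the central 95% of them (−0.95 to 0.98). The points of Cd2, Cd72, Fcer2a, Ms4a1 and Cd24a lie below the band, as does, narrowly, the open point of Cd83 (−0.959 against an edge of −0.951). The point of Cd22 lies inside the band.

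In controls the mean levels ran from Cd24a through Cd72, Cd22, Cd2, Ms4a1, Cd40, Fcer2a and Cd83 to Cr2. Per kilobase, Cd24a, Cd72, Cd22 and the pair Cd2 and Ms4a1 held separate ranges, while Cd2 (12.9 to 30.3 FPKM) overlapped Ms4a1 (11.2 to 14.4 FPKM). Fcer2a and Cd83 stood next to each other without overlap. In Skiv2l-deleted libraries the top 3 kept their places. Below them, Ms4a1 (3.05 to 7.91 FPKM), Cd40 (2.95 to 6.35 FPKM) and Cd2 (1.06 to 6.39 FPKM) overlapped one another, as did Cr2, Fcer2a and Cd83, with 0.250 FPKM as their highest value.

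The members did not all vary in the same order between mice of 1 genotype, though some shared an order. From highest to lowest, Cd72, Cd2, Fcer2a and Cd83 ranked control 3, control 1, control 2. Cd22, Cr2 and Cd24a ranked control 2, control 1, control 3. Among controls, control 3 had the highest value of 5 members and the lowest of 3, Cd22, Cr2 and Cd24a. Control 2 was lowest for 5, among them Ms4a1, Cd72 and Cd2. Among Skiv2l-deleted mice, Skiv2l-deleted 1 was lowest for 5 members (Ms4a1, Cd72, Cd2, Fcer2a and Cd40), and Skiv2l-deleted 2 was lowest for Cd22, Cr2 and Cd24a. The libraries with most myeloid signal, control 3 and Skiv2l-deleted 2, were thus the lowest of their groups for Cd22, Cr2 and Cd24a and not for the rest. The part of those other cells in the members' values was not tested beyond the omission of both libraries.

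Each tested member was set beside the other tested genes by the Euclidean distance between mean-centred log2(FPKM + 1) profiles over the 6 libraries, a description without a test. The nearest to Cd22 were Mast2 (distance 0.0638 log2 units) and Epb41l2 (0.11), and no other member had a neighbour as close. For Cd24a they were Ehd2 (0.21) and Pik3c2b (0.221), for Fcer2a Ltk (0.214) and Troap (0.218), and for Cd72 Gm43305 (0.304) and Mybpc2 (0.359). Ms4a1 lay nearest to Dok3 (0.334), an adaptor that restrains B cell receptor signalling, and Emp3 (0.349). Cd2 lay nearest to the transcription factor gene Klf2 (0.79) and the kappa joining segment Igkj5 (0.837), and Cd40 to Gm28913 (0.352) and Arrdc2 (0.365). No member was among the 2 nearest genes of another.

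Genes whose proteins work with these receptors were mostly not called. Of 14 tested B cell receptor co-receptors and their phosphatases, 3 fell and 0 rose, with a median log2 difference of −0.23: Cd72, Cd22 and Siglecg, a lectin on B cells that binds CD24. Siglecg stood at 217, 149 and 188 FPKM in controls and at 80.5, 116 and 114 FPKM in Skiv2l-deleted libraries (log2 difference −0.83 ± 0.19 SE, limma adjusted p = 0.0451), and its call was lost in each of the 6 single omissions (0.0569 to 0.139). Ptpn6, the gene of SHP-1, was at 106 to 122 and 76.6 to 97.6 FPKM (log2 difference −0.33, limma adjusted p = 0.172). The kinase gene Lyn, which phosphorylates the tails of CD22 and CD72, was at 72.9 to 74.7 and 40.0 to 62.7 FPKM (−0.51, limma adjusted p = 0.108). The groups were apart in both genes without a call, and groups apart in this direction occurred in 12.3% of genes tested.

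Cd81, whose tetraspanin product acts with CD21, was at 77.4 to 88.8 FPKM in controls against 93.1 to 126 FPKM in Skiv2l-deleted libraries (log2 difference 0.41, limma adjusted p = 0.114), apart but not called. Adam10, the protease that sheds CD23, overlapped between groups (32.6 to 69.3 and 43.5 to 50.6 FPKM), as did March1, the ubiquitin ligase gene that CD83 opposes (0.951 to 1.39 and 0.0759 to 3.52 FPKM). Of the 9 tested partners and sheddases, 1 fell, Siglecg, and 0 rose.

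In the CD40 pathway 1 of 15 tested genes fell and 1 rose, with a median log2 difference of −0.04. Traf5, an adaptor of CD40, stood at 25.2, 27.2 and 45.1 FPKM in controls and 9.45, 16.2 and 12.7 FPKM in Skiv2l-deleted libraries (log2 difference −1.26 ± 0.27 SE, limma adjusted p = 0.0325). Nfkb2, a subunit of the non-canonical NF-kB pathway, went from 12.5 to 16.0 FPKM in controls to 24.7 to 28.3 FPKM (0.85 ± 0.13 SE, limma adjusted p = 0.0128). Traf5 was called in 2 of 6 single omissions, those of control 3 and Skiv2l-deleted 2 (highest limma adjusted p = 0.115, without Skiv2l-deleted 1). Nfkb2 lost its call without Skiv2l-deleted 1 (0.0562) or Skiv2l-deleted 3 (limma adjusted p = 0.0691). Of 10 tested genes of the CD2 and SLAM family, only Cd2 was called. Cd48, the ligand of CD2 in mice, was at 86.0 to 90.3 FPKM in controls and 75.0 to 88.6 FPKM in Skiv2l-deleted libraries (log2 difference −0.13, limma adjusted p = 0.487). In the MS4A family only Ms4a1 was called among 6 tested genes. Its relatives Ms4a3 and Ms4a6c, which myeloid cells express, were highest in control 3 (29.2 and 25.8 FPKM) and Skiv2l-deleted 2 (61.0 and 52.4 FPKM).

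**Figure D3:**
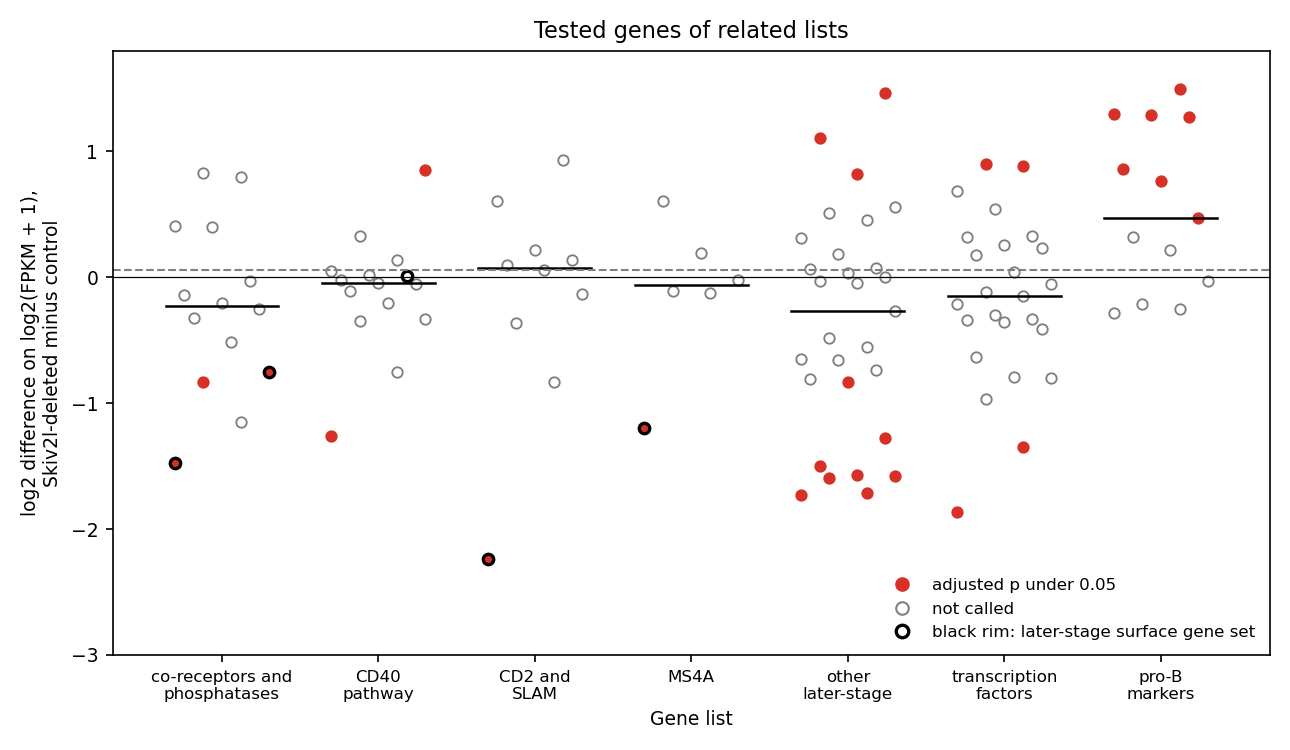
Log2 difference, Skiv2l-deleted minus control, of every tested gene in 7 lists (points; filled red where called, black rims for the later-stage surface genes). Short bars are list medians and the dashed line is the median of all genes tested. Later-stage genes are spread to both sides of 0 with 8 called lower and 3 higher, and pro-B markers have 7 called higher and 0 lower.

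Other genes of the later B cell stages went both ways. Of 29 tested, 8 fell and 3 rose, with a median log2 difference of −0.27. The falls with the largest differences were Fcrla, an Fc receptor-like gene (−1.73), the B cell kinase gene Blk (−1.72), the IgM Fc receptor gene Fcmr (−1.59), the MHC class II chaperone gene Cd74 (−1.58), the IL-2 receptor gene Il2ra, a small pre-B marker (−1.57), and the ectoenzyme gene Cd38 (−1.499). Blk stood at 142 to 151 FPKM in controls and 40.3 to 53.0 FPKM in Skiv2l-deleted libraries, and Blk and Fcrla were called in all 6 single omissions. Cd38 lost its call without control 1 alone (limma adjusted p = 0.0506), Il2ra without control 1, control 2 or Skiv2l-deleted 3 (0.0774 at most), and Fcmr and Cd74 in all omissions but that of Skiv2l-deleted 2 (0.114 and 0.12 at most). The activation marker gene Cd69 went the other way, from 15.003, 10.1 and 20.6 FPKM to 42.1, 42.1 and 42.6 FPKM (log2 difference 1.47, limma adjusted p = 0.0142), as did H2-Oa (1.10) and Cd52 (0.82). Cd69 lost its call without control 1 (0.0564), Skiv2l-deleted 1 (0.0656) or Skiv2l-deleted 3 (limma adjusted p = 0.0645), H2-Oa without control 1 or any 1 Skiv2l-deleted library and Cd52 in all but that of control 3. Without control 1, 2 or 3 and Skiv2l-deleted 1, 2 or 3 in turn, 2, 4, 5, 4, 8 and 3 of these later-stage genes were called lower, and 0, 2, 4, 0, 1 and 0 higher. In the same order, 1.54%, 1.81%, 7.46%, 0.62%, 2.94% and 0.554% of all genes were called higher. Ighd, the IgD constant gene of mature B cells, overlapped between groups (76.0 to 130 and 44.6 to 84.9 FPKM).

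Of 13 pro-B markers, 7 rose and 0 fell in the same libraries. Among them were the surrogate light chain gene Vpreb1 (log2 difference 1.29), the terminal transferase gene Dntt (1.497) and the receptor gene Kit (1.30). This count was 0 without Skiv2l-deleted 1 or Skiv2l-deleted 3, 2 without control 1, 3 without control 2 or Skiv2l-deleted 2, and 7 without control 3. Those omissions also differed in the share of all genes called higher, from 0.554% (without Skiv2l-deleted 3) to 7.46% (without control 3). Plasma cell markers fell beside the members: 3 of 6 tested were lower, Igha, Jchain and Sdc1 (Sdc1 kept its call in 2 single omissions, those of control 3 and Skiv2l-deleted 2, and reached limma adjusted p = 0.0726 in the others), and the list summed to 576 to 698 FPKM in controls and 217 to 238 FPKM in Skiv2l-deleted libraries. Igha stood at 216, 164 and 380 FPKM in controls and at most 0.302 FPKM in Skiv2l-deleted libraries. Jchain stood at 44.5, 36.9 and 75.2 FPKM in controls and at most 0.233 FPKM in Skiv2l-deleted libraries. Both entered the test through the controls alone, as Fcer2a did. Among genes at 1 FPKM or more in all 6 libraries 1 of 4 tested was called, Sdc1. Without control 3, 5 of 6 were called lower (5.59% of all genes were). The count was 3 without Skiv2l-deleted 2 and 2 in every other single omission. Prdm1, which defines plasma cells, was at most 0.511 FPKM in any library. The part of such cells in the falls of the members was not tested.

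Of 25 tested B cell transcription factor genes, 2 fell and 2 rose, with a median log2 difference of −0.15. Klf2 stood at 56.2, 49.3 and 92.5 FPKM in controls and 10.6, 26.7 and 16.3 FPKM in Skiv2l-deleted libraries (log2 difference −1.86 ± 0.35 SE, limma adjusted p = 0.0242). Spib stood at 422, 388 and 262 FPKM and at 116, 129 and 171 FPKM (−1.35 ± 0.22 SE, limma adjusted p = 0.016). Klf3 (0.90) and Lef1 (0.88) rose. Factors that define the B lineage were not called, with Pax5 at a log2 difference of −0.21 (limma adjusted p = 0.538) and Ebf1 at 0.32 (limma adjusted p = 0.247). Spi1, the gene of PU.1, was at 29.6 to 39.9 FPKM in controls and 18.0 to 43.6 FPKM in Skiv2l-deleted libraries, highest in Skiv2l-deleted 2 (limma adjusted p = 0.479). Klf2 was called in 2 single omissions, without control 3 or Skiv2l-deleted 2, and Spib in 3, without control 3, Skiv2l-deleted 2 or Skiv2l-deleted 3. Lef1 lost its call without control 1, Skiv2l-deleted 1 or Skiv2l-deleted 3 (limma adjusted p = 0.0697 at most), and Klf3 without Skiv2l-deleted 1 or 3 (0.0835 at most). Without control 3 and Skiv2l-deleted 2 together, 8 factors were called lower and 3 higher, and 5.82% of all genes were lower. Without control 3 alone 7 were lower (5.59% of all genes). The count was 0 without control 1 (1.4%), control 2 (1.94%) or Skiv2l-deleted 1 (0.849%). It was 2 without Skiv2l-deleted 2 (2.3%) and 1 without Skiv2l-deleted 3 (0.872%).

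**Figure D4:**
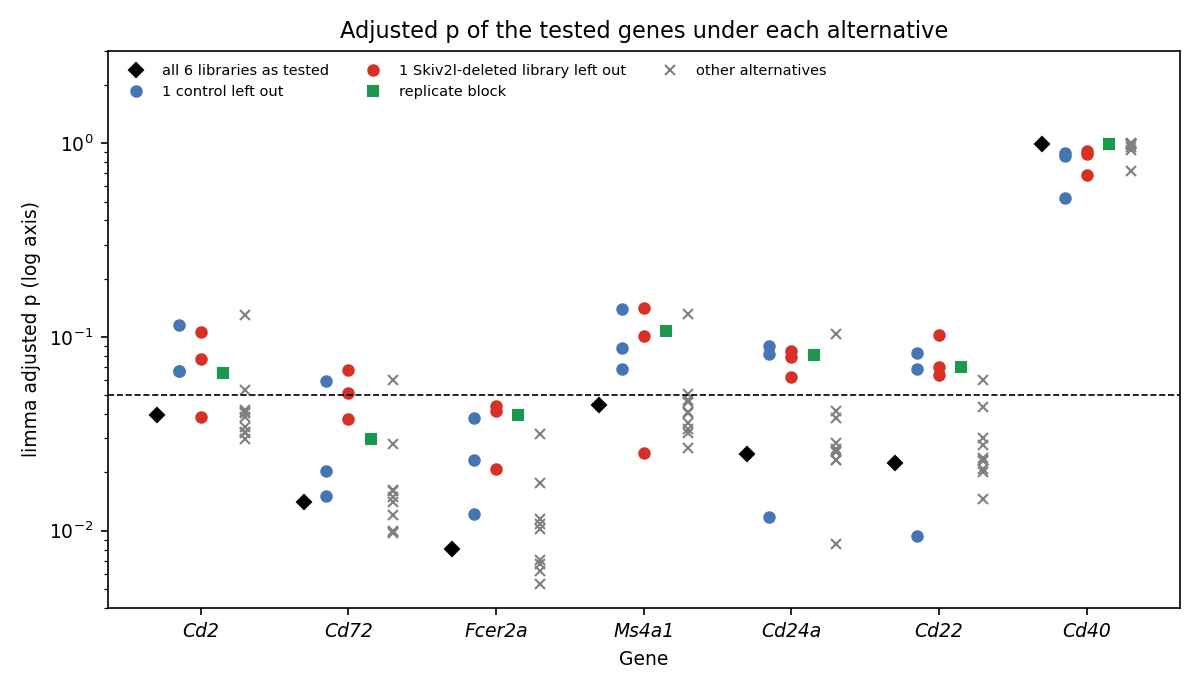
Limma adjusted p (vertical log axis) of the 7 tested genes with all libraries (diamonds), with 1 library left out (blue and red circles), with the mouse number as a block (green squares) and under the other alternatives (crosses). The dashed line is 0.05. Fcer2a stays under the line throughout, Cd40 stays far above it, and the other 5 genes have values on both sides.

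The count of members called lower was 6 with a pseudocount of 5 (3.69% of all genes called lower), TPM (3.59%), quantile normalization (4.44%), equal medians (4.84%), immunoglobulin and T cell receptor segments left out (3.04%) or no mean-variance trend in limma (3.66%). It was 5 among genes at 1 FPKM or more in all 6 libraries (3.9%), where Fcer2a was not tested. With the mouse number as a block it was 2, Cd72 and Fcer2a (1.33%).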

How the data were processed

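The members and all gene lists were chosen with earlier results of these data known, so none of them is independent support. RNA was purified on silica columns and strand-specific mRNA libraries were made, per the labels' protocols. The authors deposited FPKM, TPM and mean coverage (a signal) per gene for each mouse, per the file headers, with GRCm38 as the build (per the submitters' processing notes). Which aligner and quantifier were used, and whether strand entered the counting, is not stated in the labels or headers. The tables hold no read counts, so precision is limited by the 3 mice per group. Values of identifiers that recur within a table (7 to 9 in each) were added up. Limma 3.58.1 (R 4.3.3; lmFit, eBayes with trend) was fitted to log2(FPKM + 1) with genotype as the only term, and the fit was checked on simulated data. Named genes are all members, the up to 6 called genes with the largest difference per related list, the members' direct partners (1 of them is not reported here), the 2 nearest profiles per tested member, and the label checks; of the pro-B and plasma cell lists, examples were chosen after their values were seen. Alternatives changed the pseudocount, filter, unit, scaling, immunoglobulin segments, variance model, mouse-number block and libraries used; omissions kept the 13539 genes tested. Coordinates are those of the deposited tables and matched GENCODE M21.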

Additional observations from a re-analysis of the deposited data

How the results depend on the processing

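With 6 members called lower as tested, the count was 2 with no minimum level and 2 with the replicate block, and 4 to 6 under the other alternatives that used all libraries. Leaving out 1 library gave 1 to 4, and 0 members were called higher under every alternative (0 with all libraries, where 6 tested members had an unadjusted limma p under 0.05, all lower). The genes called over the whole table numbered 1197 as tested, 512 with no minimum level, 365 with the replicate block, 1802 without control 3 and Skiv2l-deleted 2, and 193 to 1767 with 1 library left out. The cause of these differences was not tested. The direction of each called member was the same under all alternatives. Only Cd40 turned: its log2 difference was −0.0709 after quantile normalization, −0.0415 with equal medians, −0.000294 with immunoglobulin and T cell receptor segments left out, and −0.15 to 0.30 with 1 library left out. The shared mouse numbers did not pair the libraries, with correlations of deviations of 0.09, −0.43 and −0.35 for numbers 1 to 3. Across numbers they were 0.56 (control 3 with Skiv2l-deleted 2), 0.49 (control 2 with Skiv2l-deleted 1) and 0.41 (control 1 with Skiv2l-deleted 3). The remaining combinations gave 0.11, −0.36 and −0.43. The block used the mouse numbers and not those closer combinations, whose cause was not tested. The calls with the block were Cd72 (limma adjusted p = 0.0299) and Fcer2a (0.0395). Low coverage limits the precision of Cr2, Cd83 and Fcer2a.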
